A study of Mus musculus with 6 samples.

Results

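The 9 genes described here belong to the killing machinery of cytotoxic lymphocytes: the granzymes Gzma, Gzmb and Gzmk, perforin (Prf1), the granule proteins Nkg7 and Ctsw, Fas ligand (Fasl), the activating receptor Ncr1 and the transcription factor Eomes. They were taken by gene name from the array annotation, with every non-control probe of each name kept, which gave 12 probes of 55681 probes and 9 of 34844 gene names. Gzmk, Nkg7 and Eomes had 2 probes each and the other 6 genes 1. All 12 probes passed the filter on dim signal, as did 38458 of all probes.

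RNA came from inguinal fat, a subcutaneous depot, of male C57BL/6J mice that entered the experiment at 2 months of age, with 3 arrays for each of 2 groups. DIO_CR_WR mice received a fatty diet (60% of energy) for 1 month, then calorie restriction for about 3 weeks until their weight matched that of chow-fed mice of equal age, then the fatty diet again without limit while they regained weight. DIO mice stayed on chow through those first steps and shared only the last period of unrestricted fatty diet, so both groups were eating it when the fat was taken. The group names are those of the sample titles, whereas the treatment protocol gives the name DIO to the regaining mice and calls the others controls. Age labels of 9, 10 and 11 months in DIO_CR_WR and 6, 7 and 8 months in DIO separate the groups and climb by 1 month per sample. The labels do not say whether a sample was 1 mouse, so p-values measure the spread between these samples only.

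Cytotoxic lymphocytes, chiefly natural killer (NK) cells and CD8 T cells, store perforin and granzymes in lysosome-like granules and release them onto a target cell. Perforin opens pores in the target's membrane, through which granzymes enter and cleave proteins that start cell death. Fas ligand kills by a separate route, by engaging the death receptor Fas on the target and activating caspases. Fat tissue holds resident NK and T cells among many other immune cells, and their numbers are known to shift with obesity.

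The 75th percentile of intensity was 5403 to 6370 on the DIO_CR_WR arrays and 4108 to 4452 on the DIO arrays, and 0 spots were saturated. Fewer probes were well above background on the DIO_CR_WR arrays (51.1% to 65.6%) than on the DIO arrays (68.2% to 79.2%). Slide 1 held the 3 DIO_CR_WR arrays and DIO replicate 1, and slide 2 held DIO replicates 2 and 3. The tissue label was checked against 6 adipocyte markers, among them adiponectin (Adipoq) and perilipin 1 (Plin1). Their summed level was 10300% to 15000% of the array's 75th percentile in DIO_CR_WR and 11400% to 13400% in DIO. The 5 skeletal muscle markers were bright as well, summed at 9040% to 12600% in DIO_CR_WR and 12800% to 16300% in DIO, so the check does not show fat alone. Levels below are intensities as a percentage of that percentile, and a probe's level is set only against itself on other arrays. A list's summed level adds unlike probes, so its brightest members weigh most. Fold changes are DIO_CR_WR over DIO on the log2 scale ± the SE (standard error) that limma's fit to all probes gives.

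Each probe is 60 bases long and reads only the stretch of RNA it matches. Sequences are therefore shown first for Gzmk, whose 2 probes differed in result, for Nkg7, whose 2 probes ran alike, and for Prf1, with 1 probe. The Gzmk probes lie on chromosome 13 of build mm9, minus strand. A_55_P2042331 covers chr13:113961816-113961875, and its first 30 bases are shown with a polyadenylation hexamer, AATAAA, in capitals. A_66_P140238 is given whole. Its annotated span, chr13:113970774-113971087, is 314 bases for a probe of 60, so it joins stretches that are apart in the genome, as at a splice junction.
Gzmk A_55_P2042331, bases 1 to 30: cgttcatcctaAATAAAatgtggacgtctg
Gzmk A_66_P140238, bases 1 to 60: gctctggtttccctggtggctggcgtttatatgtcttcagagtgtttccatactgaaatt
The Nkg7 probes lie close together on the plus strand of chromosome 7, at chr7:50693148-50693207 for A_51_P499195 and chr7:50693530-50693589 for A_55_P2009582 (mm9). The Prf1 probe lies at chr10:60766941-60767000 on the plus strand.
Nkg7 A_51_P499195, bases 1 to 30: tctccatattagtggctatggcagtgtaca
Nkg7 A_55_P2009582, bases 1 to 30: aaggaatgcagaattctgtctctgtccctc
Prf1 A_55_P2000039, bases 1 to 30: actgcctcagccctgcaatgcccgaaagct
Of the 12 probes, 11 carried a RefSeq accession that matched the current gene table under the same symbol. A_55_P2042331 of Gzmk was the probe without one, so its place in the Gzmk transcript rests on the array's annotation.

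The comparison asks whether fat with a history of obesity and slimming before weight regain held another level of these transcripts than fat exposed to the rich diet for the first time. Of the 12 probes, 10 had a higher mean log2 level in DIO_CR_WR fat and 2 a lower one. The highest values over DIO were those of Gzmk at A_55_P2042331 (3.17-fold), Nkg7 (3.03-fold and 2.55-fold), Eomes (2.14-fold) and Gzmb (2.04-fold), while Prf1 and the other Gzmk probe had values below 1. No member passed limma's two-sided test over all probes after Benjamini-Hochberg adjustment at 0.05, and neither did any other probe (0 of 38458, 0% called, smallest adjusted p = 0.118). At an unadjusted p under 0.05, 5 member probes of 4 genes (Gzma, Gzmk, Nkg7 and Fasl) were higher, against 5.29% of all probes (2036). None of the 12 was lower (0), against 21% of all probes (8063). At 3 probes, 1 each of Gzmk, Nkg7 and Fasl, all 3 DIO_CR_WR arrays lay above all 3 DIO arrays, which held for 7.21% of all probes, and the reverse held for 0 member probes against 25.9%. A change of at least 2-fold upward was seen at 5 member probes, against 2.89% of all probes. The median log2 fold change was 0.94 over the 12 probes and −0.19 over all probes.

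That median of all probes below 0 depends on the scaling. With arrays scaled to the spike-in probes it was 0.31, and 20.8% of all probes were higher and 2.94% lower by the unadjusted criterion. In that scaling 0.0156% of all probes passed after adjustment and 0 members did. Quantile normalization gave 6.89% higher and 13.6% lower. Relative to the median of all probes on the main scale, the member probes stood 1.86 higher for Gzmk at A_55_P2042331, 1.79 and 1.54 for Nkg7, 1.14 for Fasl and −0.05 for Prf1.

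**Figure D1:**
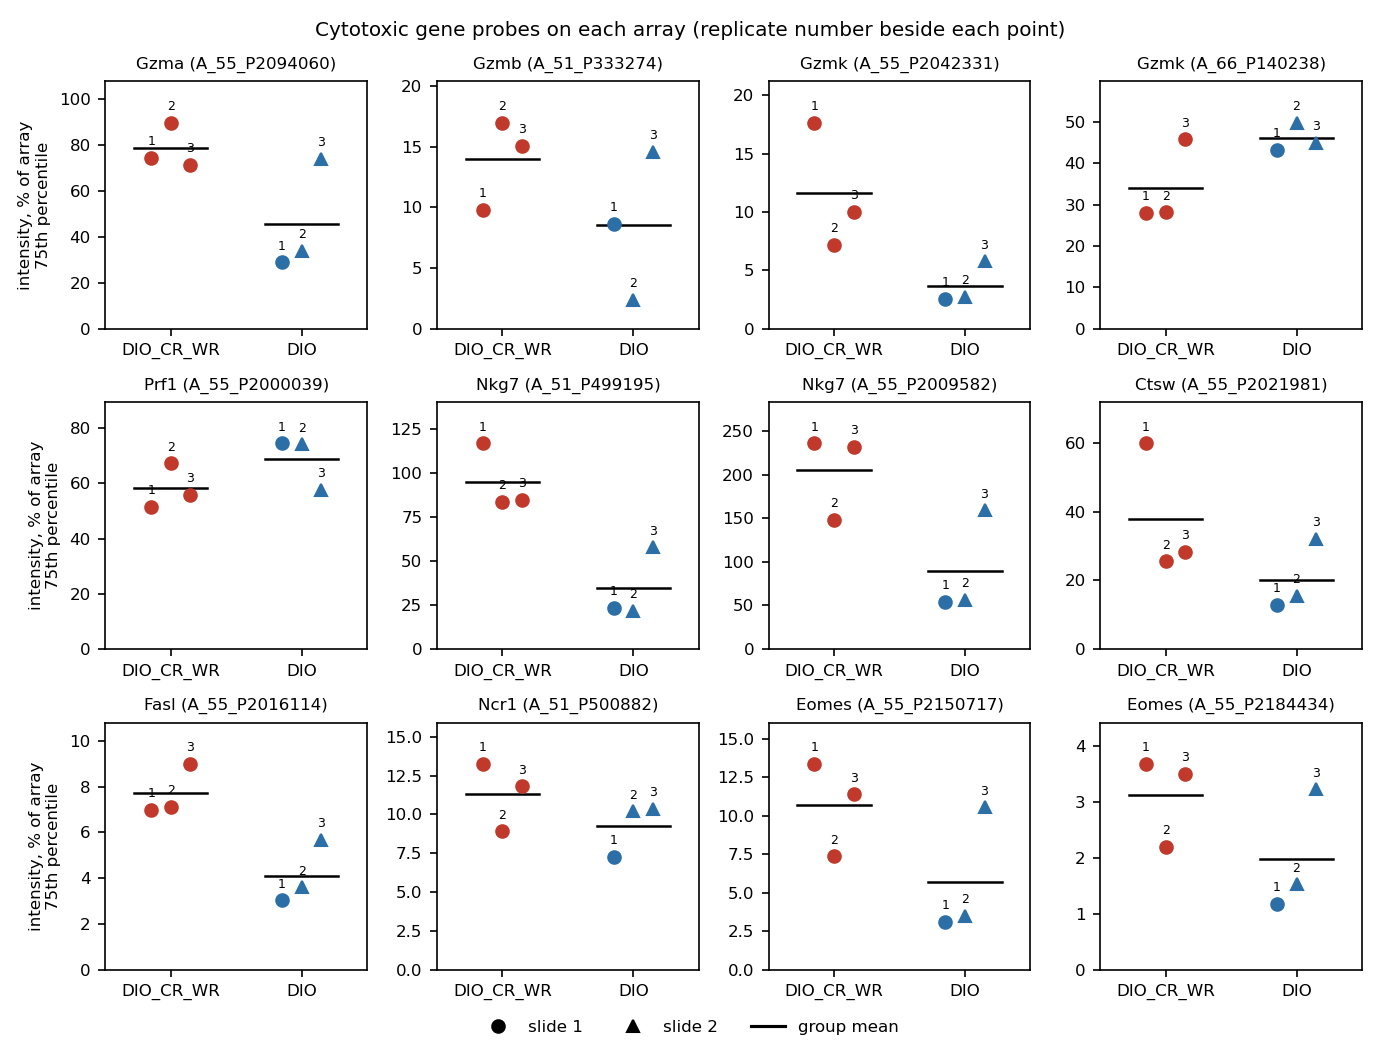
Intensity of each of the 12 probes on each array, as a percentage of the array's 75th percentile (linear axes from 0), with DIO_CR_WR in red left of DIO in blue. Numbers are replicates, circles are slide 1, triangles are slide 2 and lines are group means; DIO replicate 3 is the highest DIO array in 10 of the 12 panels.

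Granzyme A, a trypsin-like protease and an abundant granzyme of NK cells, was read by 1 probe (A_55_P2094060, chr13:113884035-113884094, minus strand). Its level was 74.4%, 89.6% and 71.3% in DIO_CR_WR fat, against 28.9%, 33.8% and 73.8% in DIO fat. DIO replicates 1 and 2 lay far below every DIO_CR_WR array, and DIO replicate 3 lay among them. The means were 78.4% ± 9.77 in DIO_CR_WR and 45.5% ± 24.6 in DIO (SD, n = 3 each), a log2 fold change of 0.91 ± 0.36 (SE; limma, adjusted p = 0.182).

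Granzyme B cleaves after aspartate and activates caspases in the target cell. Its probe (A_51_P333274, chr14:56877916-56877975, minus strand) gave 9.79%, 17.0% and 15.1% in DIO_CR_WR fat, against 8.63%, 2.36% and 14.6% in DIO fat. The groups overlapped, and DIO replicate 2 was the low array here, while DIO replicate 1 was low at most of the other probes. The log2 fold change of 1.03 ± 0.66 had the largest SE of the 12 probes (limma, adjusted p = 0.346). It was 0.28 without DIO replicate 2 and 1.59 without DIO replicate 3, so the 2.04-fold value rests on DIO replicate 2.

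Granzyme K, a trypsin-like granzyme found in CD8 T cells with a memory phenotype, gave opposite values at its 2 probes. A_55_P2042331 read 17.6%, 7.19% and 10.0% in DIO_CR_WR fat, against 2.54%, 2.71% and 5.78% in DIO fat. Every DIO_CR_WR array was above every DIO array, and the log2 fold change was 1.67 ± 0.44 (limma, adjusted p = 0.131). A_66_P140238, the probe across separate stretches, read 28%, 28.1% and 45.7% in DIO_CR_WR fat, against 43.2%, 49.8% and 45.0% in DIO fat. There DIO_CR_WR replicates 1 and 2 were below all DIO arrays and replicate 3 lay among them, with a log2 fold change of −0.48 ± 0.24 (limma, adjusted p = 0.244) that became 0.03 with spike-in scaling. Within an array the first probe minus the second averaged −1.61 in DIO_CR_WR and −3.75 in DIO (log2). The difference of 2.14 between groups had p = 0.1 in a two-sided exact permutation test, which is the smallest p that 3 arrays against 3 allow, and 0.3 after adjustment over the 3 genes with 2 probes. Which probe follows Gzmk RNA was not tested, so no direction is given for the gene.

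Perforin, the pore-forming protein, had a lower mean in DIO_CR_WR fat. Its level was 51.5%, 67.3% and 55.9% in DIO_CR_WR fat, against 74.6%, 74.2% and 57.7% in DIO fat. The groups overlapped through DIO replicate 3, which was the lowest DIO array here. The log2 fold change was −0.24 ± 0.19 (limma, adjusted p = 0.445), and its 95% confidence interval ran from −0.70 to 0.22, or 0.617-fold to 1.16-fold. With spike-in scaling the value was 0.26. A p above the threshold does not show that perforin levels were equal, and the interval leaves out an increase as large as the fold measured for Gzma, Fasl or Nkg7 on the same scale.

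Nkg7, a membrane protein of the granules that mouse lymphocytes need to release them efficiently, was read by 2 probes that ran alike. A_51_P499195 gave 117%, 83.4% and 84.6% in DIO_CR_WR fat, against 23.5%, 21.8% and 57.7% in DIO fat. All DIO_CR_WR arrays lay above all DIO arrays, with means of 94.9% ± 18.9 in DIO_CR_WR and 34.3% ± 20.2 in DIO (SD, n = 3 each) and a log2 fold change of 1.60 ± 0.40 (limma, adjusted p = 0.128). A_55_P2009582 gave 236%, 148% and 232% in DIO_CR_WR fat, against 54.4%, 56.4% and 159% in DIO fat. Here DIO replicate 3 passed DIO_CR_WR replicate 2, and the log2 fold change was 1.35 ± 0.46 (limma, adjusted p = 0.147). The 2 probes' fold changes differed by 0.25 (exact permutation p = 0.3).

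Cathepsin W (Ctsw), a papain-like cysteine protease made mainly by NK and CD8 T cells, was read at chr19:5465315-5465374 on the minus strand. Its level was 60.0%, 25.6% and 28.4% in DIO_CR_WR fat, against 13%, 15.5% and 32.1% in DIO fat. DIO_CR_WR replicate 1 stood well above all other arrays, and DIO replicate 3 exceeded DIO_CR_WR replicates 2 and 3. The log2 fold change was 0.92 ± 0.46 (limma, adjusted p = 0.247).

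Fas ligand, the death-inducing ligand on the surface of activated cytotoxic cells, was read at chr1:163711056-163711115 on the minus strand. Its level was 6.99%, 7.13% and 9.01% in DIO_CR_WR fat, against 3.03%, 3.60% and 5.67% in DIO fat. The groups did not overlap. The log2 fold change of 0.95 ± 0.27 had the smallest p of the genes read by 1 probe (limma, adjusted p = 0.134).

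Ncr1 encodes NKp46, an activating receptor that defines NK cells and some innate lymphoid cells. Its probe (A_51_P500882, chr7:4296176-4296235, plus strand) gave 13.3%, 8.90% and 11.8% in DIO_CR_WR fat, against 7.28%, 10.2% and 10.4% in DIO fat. The groups overlapped, with DIO_CR_WR replicate 2 below DIO replicates 2 and 3. The log2 fold change was 0.29 ± 0.23 with a 95% confidence interval of −0.27 to 0.84 (limma, adjusted p = 0.455).

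Eomes, a T-box transcription factor that drives perforin and granzyme expression and NK cell maturation, had 2 probes on the plus strand, at chr9:118394425-118394484 and chr9:118395189-118395248. A_55_P2150717 gave 13.4%, 7.35% and 11.4% in DIO_CR_WR fat, against 3.09%, 3.48% and 10.5% in DIO fat. DIO replicate 3 again lay among the DIO_CR_WR arrays, and the log2 fold change was 1.1 ± 0.51 (limma, adjusted p = 0.219). A_55_P2184434 was dim, well above background on 1 of 3 DIO_CR_WR arrays and 2 of 3 DIO arrays. It gave 3.68%, 2.19% and 3.50% in DIO_CR_WR fat, against 1.18%, 1.52% and 3.22% in DIO fat, a log2 fold change of 0.76 ± 0.41 (limma, adjusted p = 0.278).

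**Figure D2:**
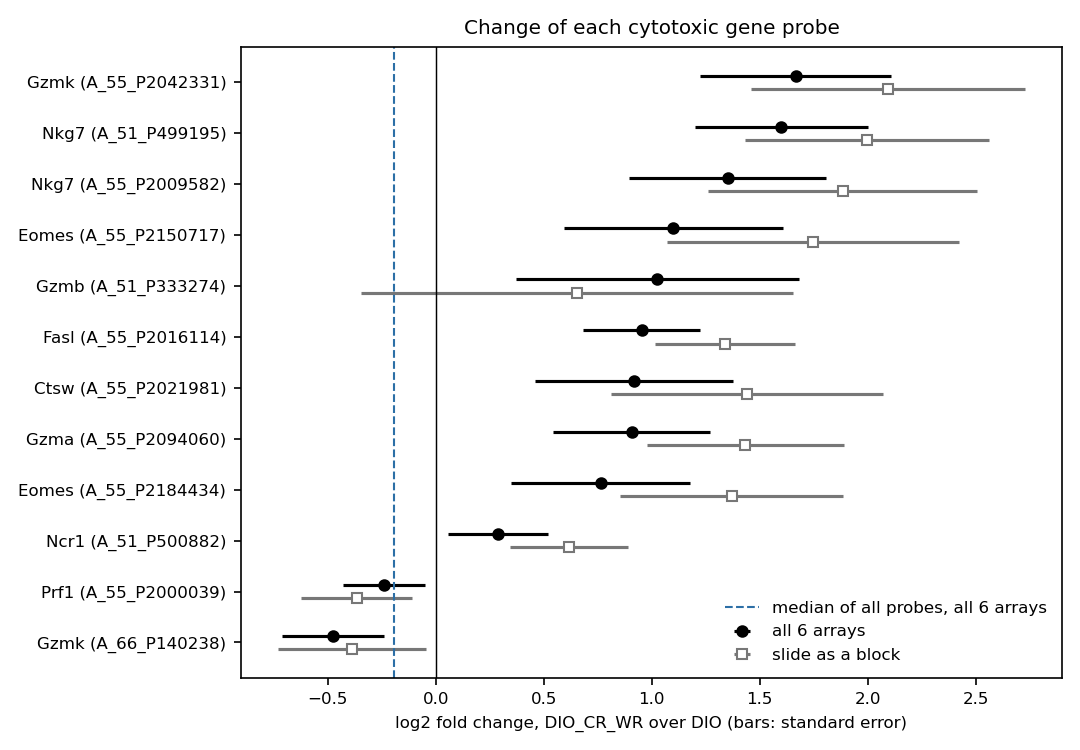
Log2 fold change of each probe, DIO_CR_WR over DIO, with its standard error: filled points from all 6 arrays, open squares with slide as a block. The dashed line is the median of all probes, −0.19; Prf1 and Gzmk A_66_P140238 stay below 0 in both fits.

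The 6 arrays did not fall into 2 even groups at these probes. DIO replicate 3 was the highest DIO array at 10 of 12 probes, against 44.4% of all probes. It exceeded at least 1 DIO_CR_WR array at 9 of 12, near the 78% of all probes, so that overlap was not particular to the members. DIO replicates 1 and 2 were both below all DIO_CR_WR arrays at 9 probes, against 12.2%. DIO_CR_WR replicate 1 was the highest of all 6 arrays at 7, against 10.8%. Without DIO replicate 3, 9 member probes were higher at an unadjusted p under 0.05, against 5.55% of all probes in that fit, and the members' median log2 fold change was 1.32. The count was 3 without DIO replicate 1, against 8.77% of all probes, and the median was then 0.71. It was also 3 without DIO replicate 2 (2.96% of all probes), without DIO_CR_WR replicate 1 (3.78%) and without DIO_CR_WR replicate 3 (4.28%), and 4 without DIO_CR_WR replicate 2 (3.52%).

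Slide and group overlap only through DIO replicate 1. On slide 1 it lay below all 3 DIO_CR_WR arrays at 10 of 12 probes, against 22.6% of all probes. With slide as a block, a fit whose group difference comes from slide 1, the log2 fold changes were 2.09 ± 0.63 for Gzmk at A_55_P2042331, 2.00 ± 0.56 and 1.88 ± 0.62 for Nkg7, and 1.75 ± 0.68 for Eomes at A_55_P2150717. Gzma stood at 1.43 ± 0.45, Ctsw at 1.44 ± 0.63, Fasl at 1.34 ± 0.32 and Ncr1 at 0.62 ± 0.27 in the same fit. Gzmb had 0.65 ± 1.00 and Prf1 −0.37 ± 0.26. In this fit 7 member probes were higher at an unadjusted p under 0.05, against 4.35% of all probes, and 0 were lower, against 5.71%. Slide 1 on its own also gave 7 higher, against 4.96% of all probes, and 0 lower, against 4.75%. These within-slide values rest on a single DIO array, and 0 probes passed after adjustment in either fit (limma).

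With the age label as a covariate, the median log2 fold change was −0.01 over the members and −0.40 over all probes. Of the 12 member probes, 5 were above 0 (share of all probes not counted). At an unadjusted p under 0.05, 0 member probes were higher, against 4.67% of all probes. The smallest unadjusted p among them was 0.0583. The labels climb by exactly 1 month in sample order, which the protocol does not account for, so whether they are real ages is in doubt, and the covariate may stand for sample order. Since they do not overlap between groups, age label and group cannot be told apart.

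Other genes of the same pathway were followed at the brightest probe of each gene, in 6 lists by role. Which cells of the fat carried their RNA was not tested, so a list's name does not give the source of its signal. At these probes 0% of 26178 genes passed after adjustment, and by an unadjusted p under 0.05 the shares were 5.24% higher and 21.2% lower, and the median log2 fold change was −0.20. Groups did not overlap, with DIO_CR_WR above, for 7.18% and, with DIO_CR_WR below, for 26.8%.

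Of 7 further granzymes on the array, 5 were too dim to test, and Gzmd, Gzmf and Gzmn were well above background on no array. At each of them every DIO_CR_WR array still read above every DIO array. Gzmd had 1.2%, 0.52% and 0.37% in DIO_CR_WR fat, against 0.27%, 0.17% and 0.17% in DIO fat. The floor was thus higher in DIO_CR_WR at these probes, and its part in the values of other dim probes was not tested. Granzyme M (Gzmm), a granzyme of NK cells, had 35.2%, 20.8% and 45.0% in DIO_CR_WR fat, against 53.2%, 64.2% and 51.6% in DIO fat. All DIO_CR_WR arrays lay below all DIO arrays, with a log2 fold change of −0.81 ± 0.30 (limma, adjusted p = 0.165). Gzme had −0.26 ± 0.43 (limma, adjusted p = 0.724), and this value was 0.65 with slide as a block and 0.24 with spike-in scaling. Genes of the mouse granzyme cluster resemble each other, and whether the Gzme probe also reads its neighbours was not tested.

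Of 11 genes that build, load and release granules, 4 were higher and 1 was lower by the unadjusted criterion, with a median log2 fold change of 0.19. Syntaxin 11 (Stx11), which fuses granules with the cell surface, had 13.7%, 16.5% and 15.7% in DIO_CR_WR fat, against 8.53%, 8.15% and 8.47% in DIO fat (log2 fold change 0.87 ± 0.15). Cystatin F (Cst7), which inhibits the cathepsin that activates granzymes, had 20%, 7.58% and 9.91% in DIO_CR_WR fat, against 2.94%, 3.96% and 7.11% in DIO fat (1.39 ± 0.46). Lyst, a regulator of lysosome size, stood at 0.74 ± 0.25, and at 0.31 with slide as a block. The lower gene was Unc13d, which primes granules for fusion, at −0.55 ± 0.20, named because it was the only one. Its value was −0.21 with slide as a block and −0.05 with spike-in scaling. Adjusted p-values (limma) of these 4 genes were 0.118, 0.144, 0.144 and 0.162.

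Granzyme inhibitors protect the cells that make or meet granzymes, and 2 of the 3 measured were higher at an unadjusted p under 0.05. Serpinb6b, an inhibitor of granzyme A in mice, had 39.8%, 37.7% and 48.5% in DIO_CR_WR fat, against 15.0%, 11.5% and 25.8% in DIO fat (log2 fold change 1.34 ± 0.31, limma, adjusted p = 0.126). Serpina3n, a secreted serpin that can inhibit mouse granzyme B, had 0.89 ± 0.20 (limma, adjusted p = 0.124) without overlap of the groups. Serpinb9, the intracellular inhibitor of granzyme B, had 0.33 ± 0.22 with overlap.

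Of 9 genes of the death receptor and caspase pathway, 2 were higher by the unadjusted criterion and 0 were lower, and the list's median was 0.32. Bid, which links death receptors and granzyme B to the mitochondrial route, had 0.55 ± 0.16. Caspase 8 (Casp8), the initiator below Fas, had 0.76 ± 0.26 (limma, adjusted p = 0.137 for Bid and 0.147 for Casp8).

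Of 16 regulators and cytokines that drive the cytotoxic programme, 13 could be tested, with 5 higher and 2 lower by the unadjusted criterion. Id2, a transcriptional regulator needed for NK cells, had 184%, 235% and 198% in DIO_CR_WR fat, against 107.1%, 72.9% and 98.6% in DIO fat, a log2 fold change of 1.16 ± 0.21 (limma, adjusted p = 0.118). Il2rb, the receptor chain shared by interleukins 2 and 15, had 54.3%, 37.3% and 44.9% in DIO_CR_WR fat, against 16.2%, 16.0% and 30.4% in DIO fat (1.18 ± 0.30, limma, adjusted p = 0.13). Interleukin 18 (Il18), which stimulates NK and T cells, had 1.33 ± 0.36 over all arrays and 0.49 with slide as a block.
The 2 lower genes were named after their values were seen. Tbx21, which encodes T-bet, the T-box partner of Eomes, had 96.2%, 85.9% and 89.9% in DIO_CR_WR fat, against 94.7%, 242% and 236% in DIO fat. Only the 2 DIO arrays of slide 2 were high, and the log2 fold change of −0.96 ± 0.38 became −0.06 with slide as a block. Il15ra, which presents interleukin 15, had −0.49 ± 0.15, and 0.01 with spike-in scaling.

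Among 12 co-receptors, adaptors and secreted products of cytotoxic cells, 6 were higher and 1 was lower by the unadjusted criterion, with a median of 0.68. Interferon gamma (Ifng) had 5.23%, 7.38% and 7.44% in DIO_CR_WR fat, against 1.44%, 1.41% and 2.55% in DIO fat, and was well above background on 2 of 3 DIO_CR_WR arrays and on 3 of 3 DIO arrays. Its log2 fold change was 1.93 ± 0.29 (limma, adjusted p = 0.118). The chemokine Xcl1, released by NK and CD8 T cells to attract dendritic cells, had 29.0%, 21.7% and 21.6% in DIO_CR_WR fat, against 5.47%, 4.99% and 10.0% in DIO fat (1.88 ± 0.30, limma, adjusted p = 0.118).
The chemokine Ccl4 had 23.3%, 22.9% and 19.8% in DIO_CR_WR fat, against 4.20%, 3.18% and 13.6% in DIO fat (1.96 ± 0.53, limma, adjusted p = 0.131). For all 3 of these products the groups did not overlap. The lower gene, Cd244, a SLAM family receptor of NK cells, had −0.71 ± 0.23 and was −0.24 with slide as a block.

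**Figure D3:**
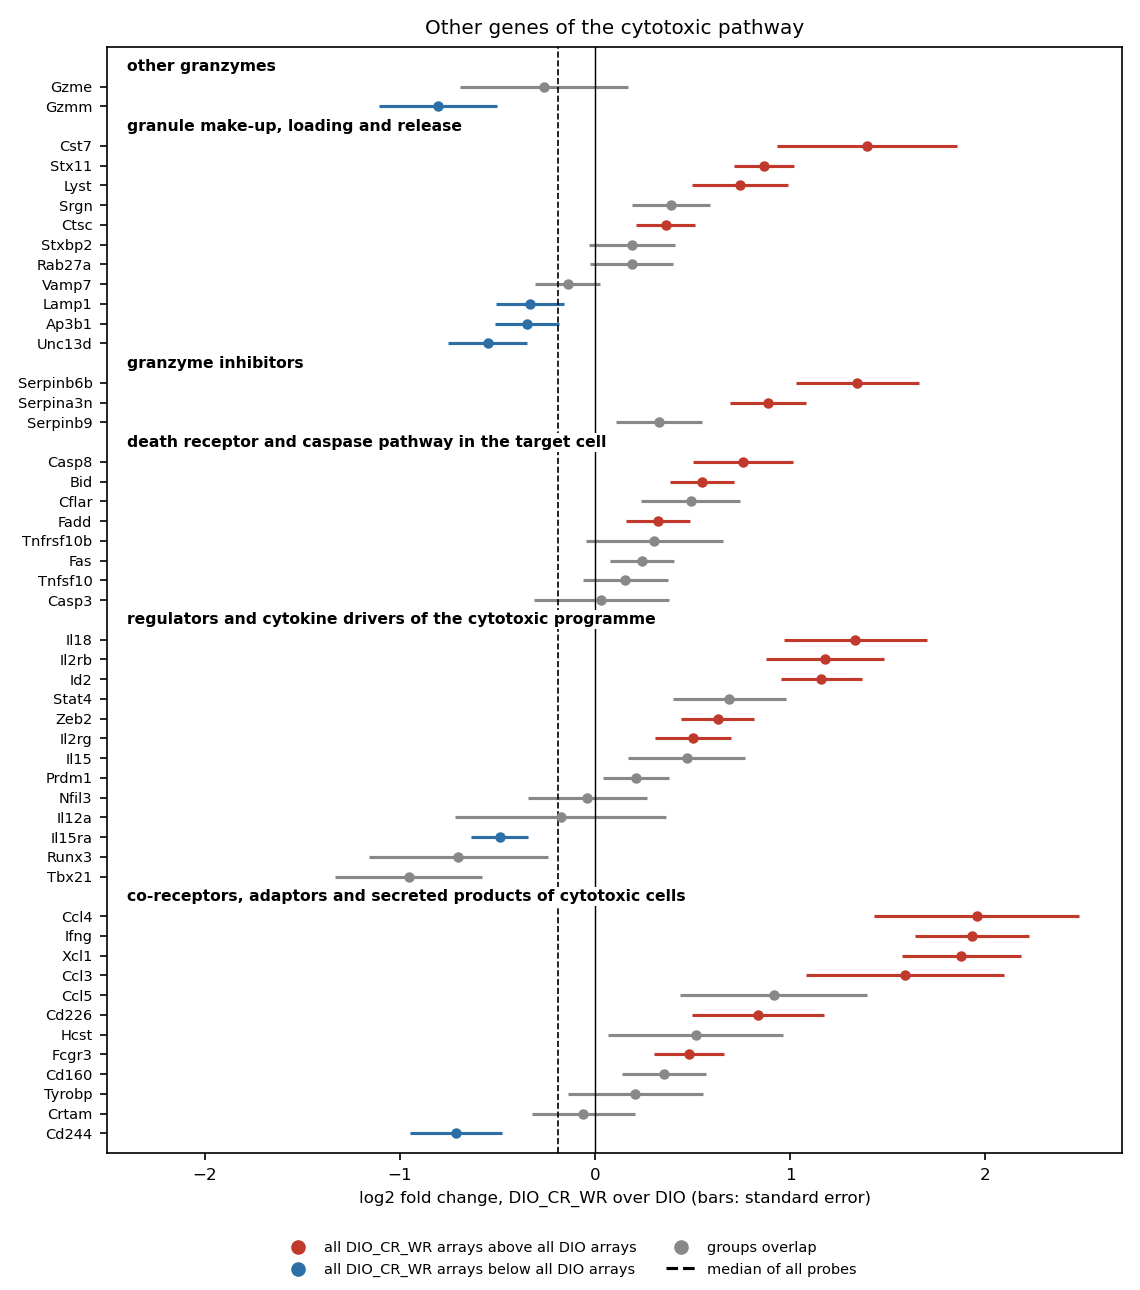
Log2 fold change, DIO_CR_WR over DIO, and standard error of pathway genes that could be tested, grouped by list. Red marks genes with all DIO_CR_WR arrays above all DIO arrays, blue the reverse and grey overlap, and the dashed line is the median of all probes; Ifng, Xcl1 and Ccl4 lie near 1.9, Gzmm at −0.81 and Tbx21 at −0.96.

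In whole fat, fewer or more cells of a type and less or more RNA per cell cannot be told apart. The tested NK cell markers, all of them Klr genes, and some T cell markers had higher values in DIO_CR_WR fat, as most members did. Genes of NK cells outside that list were uneven. Gzma (0.91 ± 0.36) and Xcl1 (1.88 ± 0.30) had higher values, and Ncr1 had 0.29 ± 0.23 with overlap. Gzmm (−0.81 ± 0.30), Cd244 (−0.71 ± 0.23) and Prf1 (−0.24 ± 0.19) had values below 0, where the median of all genes was −0.20. With spike-in scaling Gzmm was −0.30, Cd244 −0.21 and Prf1 0.26, where the median of all probes was 0.31. Of 9 NK cell markers, 8 could be tested and all 8 were higher at an unadjusted p under 0.05, against 5.24% of all genes. Their median log2 fold change was 1.41. Klrc2 was well above background on no array, yet read 4.26%, 0.51% and 0.37% in DIO_CR_WR fat, against 0.26%, 0.24% and 0.25% in DIO fat. Klre1 was well above background on 2 of 3 DIO_CR_WR arrays and 3 of 3 DIO arrays. The part of a higher floor in the values of dim markers was not tested. Summed over the list, the level was 105% to 170% in DIO_CR_WR and 34.8% to 78.1% in DIO. Klrb1c, which encodes NK1.1, had 13.6%, 11.0% and 13.4% in DIO_CR_WR fat, against 3.40%, 3.77% and 6.83% in DIO fat (1.51 ± 0.29). Klrk1, which encodes NKG2D, was dim, well above background on 2 of 3 DIO_CR_WR arrays and 1 of 3 DIO arrays, and had 2.24 ± 0.41.
Of 10 T cell markers, 5 were higher and 0 lower, against 5.24% and 21.2% of all genes. At 3 the groups did not overlap, with DIO_CR_WR above, against 7.18% of all genes. The median was 1.02 and the summed level 193% to 319% in DIO_CR_WR and 107% to 228% in DIO. Cd8a had 7.82%, 4.65% and 6.93% in DIO_CR_WR fat, against 1.75%, 1.71% and 4.49% in DIO fat, without overlap (1.41 ± 0.42). Cd3e had 31.5%, 14.7% and 20.8% in DIO_CR_WR fat, against 7.56%, 9.91% and 22.6% in DIO fat (0.84 ± 0.47), and here DIO replicate 3 exceeded DIO_CR_WR replicates 2 and 3. Cd4 had −0.10 ± 0.27 and Cd5 0.05 ± 0.31, both picked after their values were seen, to show that the list was uneven. The part that the number of such cells plays in the members' values was not tested.

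Markers of other cells, counted by the same unadjusted criterion, were less even. Of all genes, 5.24% were higher and 21.2% lower by it, so 1 lower of 4 tested markers is near that share. Of 4 B cell markers that could be tested of 6, 1 was higher (Cd79b, 1.51 ± 0.42) and 1 lower (Cr2, −0.83 ± 0.21), each named as the only one, and the summed level was 192% to 222% in DIO_CR_WR and 236% to 315% in DIO. Most of that sum was Cr2, with 108%, 137% and 166% in DIO_CR_WR fat, against 209%, 247% and 269% in DIO fat, so the sum follows Cr2 and not the list. For lymph node stroma and venules, whose presence would mark a lymph node in the dissected fat, 4 of 6 markers were tested. Of these 2 were higher, Cxcl13 (1.70 ± 0.39) and Ccl19 (0.86 ± 0.15), and 1 lower, Chst4 (−1.05 ± 0.19, without overlap). Madcam1 had −0.20 ± 0.49 with overlap. The summed level was 411% to 695% in DIO_CR_WR and 213% to 278% in DIO, but most of it was Cxcl13 and Ccl19, so the sum does not follow the list. Of the other markers of that list, Glycam1 was well above background on 0 of 3 DIO_CR_WR arrays and 2 of 3 DIO arrays, and no probe carried the name Ccl21a. Macrophage markers had 2 of 6 higher (summed 4590% to 5930% in DIO_CR_WR, 4300% to 7010% in DIO), and mast cell markers 2 of 6 (517% to 635% in DIO_CR_WR, 438% to 559% in DIO). Neutrophil markers had 1 of 6 higher and 3 lower (1890% to 2120% in DIO_CR_WR, 2030% to 2090% in DIO), and those of plasmacytoid dendritic cells 0 of 4 higher and 1 lower (2410% to 2550% in DIO_CR_WR, 2810% to 3620% in DIO). Skeletal muscle markers had 3 of 5 lower (9040% to 12600% in DIO_CR_WR, 12800% to 16300% in DIO), and adipocyte markers 0 of 6 in either direction. Their part in the members' values was not tested.

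**Figure D4:**
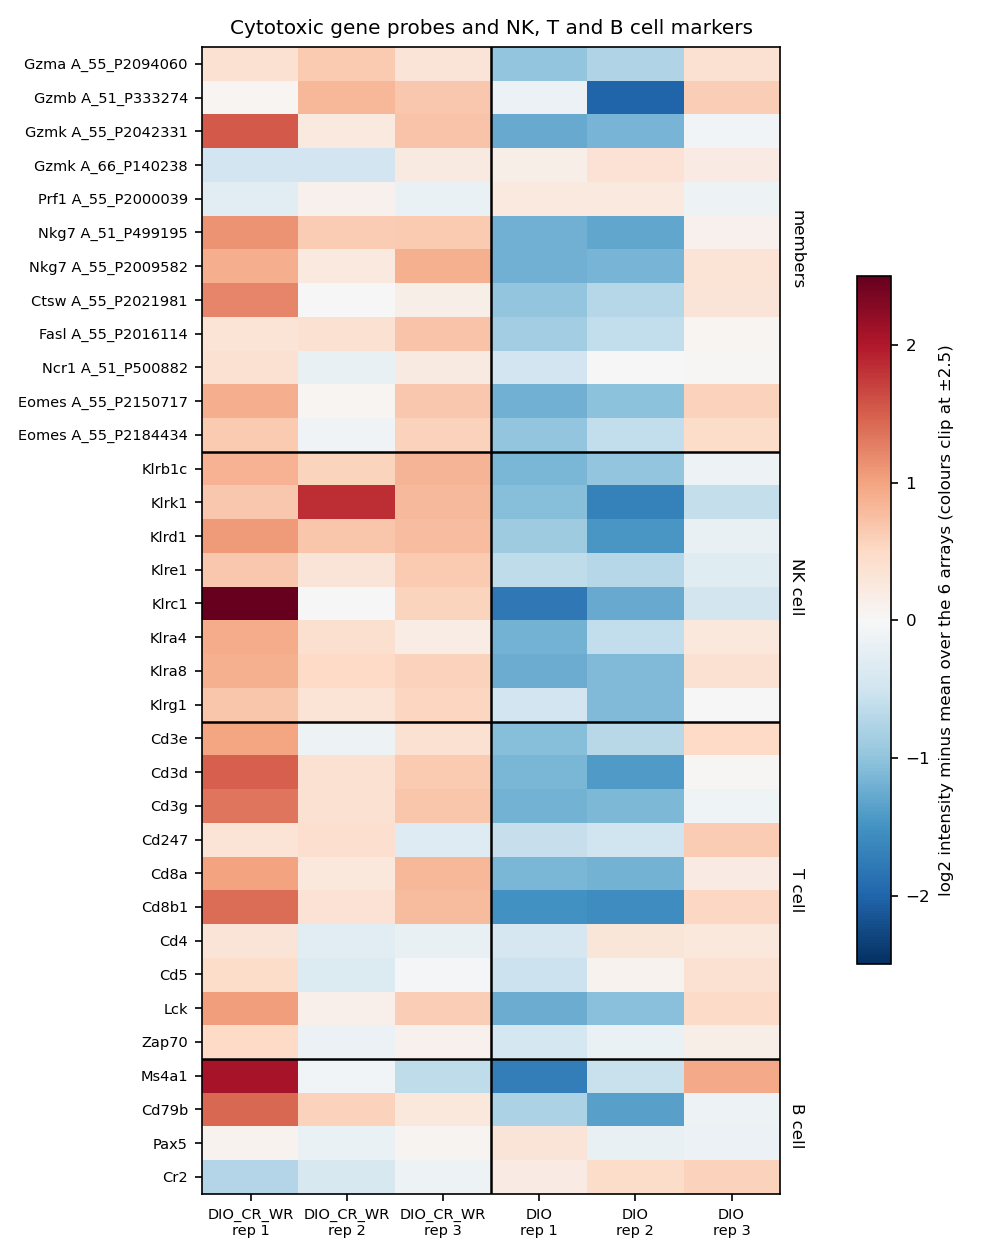
Log2 intensity minus the mean over the 6 arrays for the 12 member probes and the testable NK, T and B cell markers, with the DIO_CR_WR arrays in the left 3 columns. Red is above and blue below the mean, with colours clipped at ±2.5; DIO replicates 1 and 2 are blue at most member, NK and T cell rows, and Prf1 and Gzmk A_66_P140238 are pale throughout.

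Likeness of profiles was measured at the brightest probe of each gene as the root mean square (RMS) difference of log2 levels, centred on each gene's mean over the 6 arrays, among 15208 named genes. The genes nearest to Nkg7 were Cd8a (RMS 0.08) and the T cell kinase Lck (0.15), and those nearest to Eomes were Lck (0.08) and the chemokine receptor Cxcr3 (0.08). Ctsw ran closest to Vav1 (0.16), a signalling protein of lymphocytes, and Cd3e (0.17). The genes nearest to Gzma were Fgd3 (0.05) and Slamf8 (0.05), and those nearest to Fasl were Gcet2 (0.06) and Mmp3 (0.12). Ncr1 ran closest to C1qtnf6 (0.08) and Rgs13 (0.09), and Prf1 to Nap1l5 (0.04) and Cdkl1 (0.05). For Gzmk at its brightest probe, A_66_P140238, they were Kcmf1 (0.06) and Pank4 (0.07), and for Gzmb they were Mup20 (0.30) and Neurl3 (0.38). A probe that varies little has a small RMS difference to many genes, and the members' own RMS deviation over the arrays was 0.21 for Prf1, 0.28 for Ncr1, 0.87 for Nkg7 and 0.96 for Gzmb. Among the 36 pairs of members, Nkg7 and Eomes were closest (RMS 0.16), then Fasl and Gzma (0.25), and Gzmb and Gzmk were farthest apart (1.15). Over 6 arrays in 2 groups many genes share a profile, so these values describe the arrays only.

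The sequence upstream of the members was examined for letters bound by the factors that drive the cytotoxic programme, in the 250 bases before each gene's start (RefSeq, GRCm38.p6). A promoter was present for 8 of the 9 genes, with 2 starts for Ncr1, and Ctsw had no entry. The letters searched on both strands were GGTGTGA (bound by T-box factors such as Eomes), TGTGGT (RUNX factors), TGANTCA (AP-1) and TTCNNNGAA (STAT factors). Nkg7, which had high values in DIO_CR_WR fat at both probes, Gzmk, whose probes disagreed, and Prf1, with a log2 fold change below 0, are shown with matches in capitals on the gene's strand.
Nkg7, chr7:43436888-43437137, plus strand: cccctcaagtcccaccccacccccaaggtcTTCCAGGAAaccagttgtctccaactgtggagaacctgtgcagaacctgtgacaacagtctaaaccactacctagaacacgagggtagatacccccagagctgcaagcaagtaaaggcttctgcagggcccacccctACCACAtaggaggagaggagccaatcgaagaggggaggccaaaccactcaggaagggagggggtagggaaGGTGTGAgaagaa
Gzmk, chr13:113180966-113181215, minus strand: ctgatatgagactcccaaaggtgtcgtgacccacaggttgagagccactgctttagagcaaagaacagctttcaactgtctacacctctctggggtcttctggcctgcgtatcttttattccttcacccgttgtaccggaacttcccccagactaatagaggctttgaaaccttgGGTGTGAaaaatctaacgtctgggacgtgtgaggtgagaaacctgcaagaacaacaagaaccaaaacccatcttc
Prf1, chr10:61297586-61297835, plus strand: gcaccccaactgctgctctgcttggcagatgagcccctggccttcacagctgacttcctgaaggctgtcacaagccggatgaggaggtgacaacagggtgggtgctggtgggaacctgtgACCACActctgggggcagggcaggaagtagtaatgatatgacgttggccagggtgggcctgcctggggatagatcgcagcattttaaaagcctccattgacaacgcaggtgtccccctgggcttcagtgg
The T-box letters began 13 bases before the start of Nkg7 and 75 bases before that of Gzmk, and were present in 2 of the 9 member promoters and in 3.33% of 32851 promoters. The RUNX letters were present in 6 of 9 member promoters, those of Gzma, Gzmb, Prf1, Nkg7 and both of Ncr1, and in 14.0% of all. The AP-1 letters were found at Gzmb alone (6.75% of all promoters), and the STAT letters at Nkg7 alone (7.02%). The windows of Fasl and Eomes held none of the 4. Both Ncr1 windows overlap, so their matches are the same letters counted at 2 starts, and a match describes letters, not binding.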

How the data were processed

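RNA of 6 samples of inguinal fat was read on 1-colour Agilent arrays (design 028005), 1 array per sample, from 0.5 µg of RNA. The deposited intensities were made with Feature Extraction, version 10.7.1.1 per the submitters' processing notes and 10.7.3.1 per the file headers. Per the file headers, a local background with a spatial trend was subtracted, a trend within the array was removed, and intensities near background were replaced by a surrogate value. The 18 value columns of a series-wide table were not used, since their names fit no sample title.

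Spots of a probe were averaged on the log2 scale after leaving out 3671 control spots of 62976 and outlier flags. Each array was scaled by its 75th percentile over non-control probes. Probes well above background on 3 or more of the 6 arrays were kept. DIO_CR_WR was compared with DIO by limma 3.58.1 in R 4.3.3 (version 1.17.8 of data.table), two-sided, with Benjamini-Hochberg adjustment over all 38458 probes at 0.05. The script was tested on simulated data. The number of arrays limits the precision.

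The members, the pathway and marker lists and the tests were chosen with earlier results of these data known. Every member is named with every probe. From each pathway list up to 3 genes with the smallest p are named, with 4 fixed NK and T cell markers and the 2 genes most like each member. A gene that this rule picked is not reported here and stays in the counts. Alternatives were quantile normalization, normexp (offset 50) with quantile normalization, centring on the median, scaling to 8 of 10 spike-in probes, other filters, 1 probe per gene, a trended and robust variance, slide or replicate number as a block, slide 1 alone, the age label as a covariate, an adjusted p under 0.1, and leaving out each array.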

Additional observations from a re-analysis of the deposited data

How the results depend on the processing

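No member probe passed after adjustment under any alternative (0 under each, limma). The number of all probes that passed was 6 with spike-in scaling, 48 among probes well above background on all 6 arrays, and 0 to 5361 when 1 array was left out. The 5361 came without DIO replicate 1, when the groups lie on different slides. The 5 member probes higher at an unadjusted p under 0.05 (5.29% of all probes) became 9 with spike-in scaling (20.8% of all probes). They became 3 with 1 probe per gene, where fewer probes were tested, and 0 with the age label as a covariate (4.67% of all probes). That count was 3 to 9 when 1 array was left out (2.96% to 8.77% of all probes). The lower count was then 0 to 1, with the 1 coming without DIO_CR_WR replicate 3. The share of all probes was not counted with 1 probe per gene, nor for that lower count. Except where fewer probes or arrays were tested, the cause was not tested. The log2 fold change turned round in 7 instances. With the age label as a covariate it was −0.0632 for Gzma, −0.0112 for Gzmb, −0.001 for Fasl, and −0.0506 and −0.272 for Eomes. With spike-in scaling it was 0.0258 for Gzmk at A_66_P140238 and 0.262 for Prf1. The other 205 values kept their direction and their side of the threshold. With replicate number as a block, 4 member probes were higher (share of all probes not counted), and 0 probes passed, so the block changed no other call. The numbers did not pair the samples: deviations from group means correlated at 0.004, −0.13 and −0.21 for equal numbers and at −0.08 to 0.22 for unequal ones. Signal over background limits dim probes such as Eomes A_55_P2184434 and Klrk1.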
